A study of Rattus norvegicus with 4 samples.

Results

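The 36 genes described here are cell cycle genes, 25 of them with roles in G2 and mitosis (the mitotic members) and 11 with roles in S phase, when DNA is copied (the S members). They were taken by symbol from the 30058 genes of a single-cell RNA sequencing table of the rat anterior pituitary, and all 36 symbols were found there once. Of the 36, 20 also belong to a list of 39 cell cycle genes that the study chose on these same cells, so the way those 20 move together is not independent evidence. Of the mitotic members, 5 (Ccnb2, Cdca3, Hmmr, Bub1 and Prc1) are outside that list.

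The cells came from Sprague Dawley rats, females in diestrus at 44 days of age and males at 59 days. For each sex 4 anterior pituitaries were dispersed with trypsin and EDTA and pooled, and the pool was loaded on 2 lanes of a droplet device (10X Genomics 3′ chemistry), which gave 4 lanes in all. The 2 lanes of a sex are technical replicates of 1 cell suspension. Sex, age and pool therefore cannot be told apart, and every p-value between the sexes measures the spread between lanes only. Of 7861 cells, 6849 were used, between 1639 and 1796 per lane, with 16218657 to 19721739 UMIs (unique molecular identifiers, counted molecules) per lane and a median of 8889 UMIs per cell. Transcripts of the Y-linked genes Kdm5d, Eif2s3y and Ddx3y summed to 10 and 9 UMIs in the female lanes and to 2277 and 2378 in the male lanes. Between lanes, 30 barcode sequences were shared.

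Cell types were set from the marker genes of the study, none of which is a member: folliculostellate cells (FSC, the non-hormonal network cells, 2315 cells), somatotrophs (S, growth hormone, 1889), corticotrophs (C, adrenocorticotropin, 792), leukocytes (Le, 548), lactotrophs (L, prolactin, 485), erythrocytes (E, 361), gonadotrophs (G, luteinizing and follicle-stimulating hormone, 239), endothelial cells (EC, 132) and thyrotrophs (T, thyrotropin, 88). Cells that the markers left unclassified took the type of their neighbours over the 1000 most variable genes. Doublets were called over such genes too, and members were not removed from them.

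Dividing cells copy their DNA once and then separate the copies. The S members encode the replicative helicase, its partner GINS, the sliding clamp and the enzymes that supply deoxynucleotides, and the genes are classically transcribed at the G1 to S transition under E2F factors. The mitotic members encode the cyclins and kinases of mitotic entry, the spindle, the centromere and the machinery that ends mitosis, and many are repressed in resting cells through a promoter element called CHR. In the adult pituitary most hormone cells are quiescent, and a small share of them still divides.

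The 2 groups differed in their promoters. RefSeq promoters (build GRCr8, 250 bases before to 50 bases after the start of the gene) were at hand for 29 of the 36 members, 20 mitotic and 9 S. The CHR letters TTTGAA were in 15 of the 20 mitotic promoters (75%) and in 1 of the 9 S promoters (11.1%), against 18.3% of all 33469 promoters in the table. The box CCAAT was in 17 mitotic promoters (85.0%) and 7 S promoters (77.8%), against 37.5% of all. Any of 4 E2F forms, TTTCCCGC, TTTCGCGC, TTTGCCGC or TTTGGCGC, was in 1 mitotic promoter (5.0%) and 6 S promoters (66.7%), against 2.14% of all. Both strands were searched, and TTTGAA and CCAAT occurred together in 14 mitotic promoters, in 0 S promoters and in 7.41% of all. A match of letters is a description and not evidence of a bound site. The 120 bases before the start are shown for 6 mitotic members and 4 S members whose matches fall in that stretch, 5′ to 3′ on the strand of the gene, with capitals for every match of the 6 forms on either strand. In Mki67 a CHR match shares a base with a CCAAT match, in Mcm7 an E2F match does, and in Mcm2 the capitals are 2 overlapping E2F matches.
Cdk1 (chr20:19265173-19265292, plus strand): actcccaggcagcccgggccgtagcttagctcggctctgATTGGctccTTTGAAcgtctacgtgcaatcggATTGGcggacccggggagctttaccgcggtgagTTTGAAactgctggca
Ccnb2 (chr8:79981659-79981778, minus strand): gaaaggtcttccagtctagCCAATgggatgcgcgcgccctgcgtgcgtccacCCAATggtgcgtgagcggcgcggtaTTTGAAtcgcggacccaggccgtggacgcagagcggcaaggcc
Cdc20 (chr5:137255800-137255919, minus strand): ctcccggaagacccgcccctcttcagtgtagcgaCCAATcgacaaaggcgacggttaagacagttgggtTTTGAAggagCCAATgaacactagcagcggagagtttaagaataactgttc
Prc1 (chr1:143659361-143659480, plus strand): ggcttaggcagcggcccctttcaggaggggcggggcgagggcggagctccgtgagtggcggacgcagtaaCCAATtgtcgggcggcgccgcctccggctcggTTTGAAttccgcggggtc
Top2a (chr10:84473094-84473213, minus strand): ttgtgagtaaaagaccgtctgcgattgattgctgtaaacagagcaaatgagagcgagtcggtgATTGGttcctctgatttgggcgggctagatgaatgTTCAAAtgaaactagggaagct
Mki67 (chr1:199952594-199952713, minus strand): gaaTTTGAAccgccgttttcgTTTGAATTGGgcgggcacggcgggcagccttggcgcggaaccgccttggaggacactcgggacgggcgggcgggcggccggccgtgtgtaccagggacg
Mcm2 (chr4:122918095-122918214, minus strand): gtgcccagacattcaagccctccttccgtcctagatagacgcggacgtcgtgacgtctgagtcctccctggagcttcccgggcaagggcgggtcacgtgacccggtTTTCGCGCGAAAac
Mcm5 (chr19:13488693-13488812, plus strand): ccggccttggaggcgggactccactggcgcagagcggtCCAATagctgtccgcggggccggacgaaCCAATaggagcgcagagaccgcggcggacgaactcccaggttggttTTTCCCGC
Mcm7 (chr12:22163179-22163298, minus strand): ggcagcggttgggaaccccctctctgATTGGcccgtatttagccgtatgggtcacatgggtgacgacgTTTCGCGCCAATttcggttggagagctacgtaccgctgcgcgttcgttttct
Tyms (chr9:120776084-120776203, minus strand): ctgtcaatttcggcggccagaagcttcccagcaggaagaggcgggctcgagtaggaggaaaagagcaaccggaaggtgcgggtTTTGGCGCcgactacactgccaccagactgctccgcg

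The mitotic members were concentrated in a small set of cells. A member was counted as found in a cell from 1 UMI. Of the 6849 cells, 5006 had none of the 25 mitotic members, 1406 had 1, 217 had 2, 71 had 3 or 4, 49 had 5 to 11 and 100 had 12 to 25, of which 13 had all 25. Cells with at least 5 mitotic members are called mitotic-high cells below, a range of a count and not a cell type. There were 149 of them, or 2.18% (exact 95% interval 1.84 to 2.55), and they held 3.12% of all UMIs. Near the limit lay 32 cells with 4 or 5 mitotic members and 92 with 3 to 6. With a limit of 3 mitotic members the cells that passed were 90 FSC (3.89%), 58 S (3.07%), 35 L (7.22%), 15 EC (11.4%) and 15 Le (2.74%), and with a limit of 8 they were 41, 33, 29, 8 and 9. The mitotic-high cells were deeper, with a median of 13551 UMIs against 8810 in the others. After each cell was thinned to 2000 UMIs, 1.37% of cells had at least 5 mitotic members.

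Mitotic-high cells were found in 7 of the 9 types. FSC held 48 (2.07% of FSC, interval 1.53 to 2.74), S held 44 (2.33%, 1.70 to 3.11), L held 33 (6.80%, 4.73 to 9.42), Le held 11 (2.01%, 1.01 to 3.56) and EC held 9 (6.82%, 3.16 to 12.5). By number, FSC, S and L made up 32.2%, 29.5% and 22.1% of the mitotic-high cells. Corticotrophs were nearly without them, with 3 of 792 cells (0.379%), although their median depth of 11473 UMIs was above that of FSC, 6900. Thyrotrophs held 1 of 88. None was found among 239 G or 361 E, and 3 cells would be 1.26% and 0.831% of these types. Among cells whose markers met the rules of more than 1 type, 17 of 207 (8.21%) were mitotic-high, and among the 609 cells left out as doublets or outliers 41 (6.73%) were. These intervals cover counting error only. By the marker rules alone, mitotic-high cells were 42 of 2276 FSC (1.85%), 43 of 1810 S (2.38%), 33 of 480 L (6.88%) and 2 of 743 C (0.269%).

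Lactotrophs and endothelial cells carried their mitotic-high cells in the female lanes. In L the shares were 15.3% and 10.7% in the female lanes, or 30 of 227 cells, and 1.53% and 0.787% in the male lanes, or 3 of 258. Both female lanes were above both male lanes, with pooled intervals of 9.10 to 18.3% and 0.240 to 3.36%. Female L were also deeper, with a median of 18301 UMIs against 7254 in males, and after thinning to 2000 UMIs the counts were 22 female cells (9.69%) and 3 male cells (1.16%). In EC the female lanes had 9.09% and 16.7%, 9 of 74 cells, and the male lanes 0 of 58, where 3 cells would be 5.17%. Median depths of EC were 7686 and 7132 UMIs. In FSC the lanes overlapped, at 1.99% and 1.82% in females and 3.06% and 1.49% in males. In S the female lanes were at 3.63% and 2.29% and the male lanes at 1.64% and 1.90%. In Le the female lanes were at 1.59% and 0.741% and the male lanes at 3.95% and 1.48%.

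**Figure D1:**
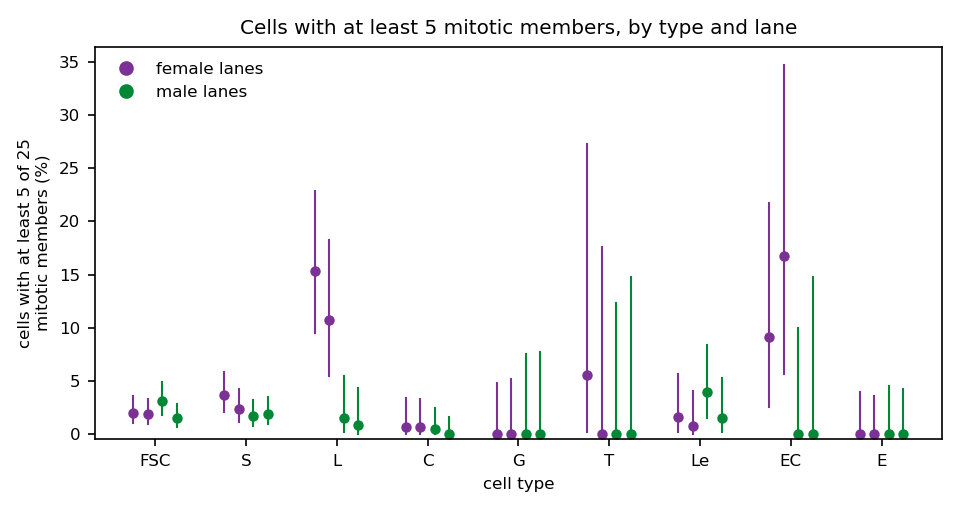
Share of cells with at least 5 of the 25 mitotic members (y axis, percent) in each cell type (x axis) and lane (points, with exact 95% intervals), females in purple and males in green. The female lanes of L, at 15.3% and 10.7%, and of EC, at 9.09% and 16.7%, lie above the male lanes of the same type.

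How tightly each member kept to these cells was read from the share of its own UMIs found in cells with at least 5 other mitotic members. The median share was 85.9% over the 25 mitotic members and 19.4% over the 11 S members, against 3.14% over all 15413 genes with at least 50 UMIs, of which 112 were above 50%. Of the mitotic members, 24 were above 50% and 18 above 80%. Where a single mitotic member is placed in or outside mitotic-high cells below, that member was left out of the count of 5. A cell that reaches 5 only through the member itself then counts as outside. The shares below are counts of molecules of 1 gene in different cells and say nothing of one gene's level against another's.

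Among the cyclins and kinases, 96.4% of the 197 UMIs of Ccna2, the cyclin of S phase and G2, were in mitotic-high cells. Ccnb1 and Ccnb2, the cyclins that activate Cdk1 at mitotic entry, had 83.2% and 87.9%, and Cdk1 itself had 85.9% of 990 UMIs. Plk1, a kinase of centrosome maturation and mitotic progression, had 87.5%. Bub1, a kinase of the spindle checkpoint, had 68.9%, and Aurka, the kinase of the spindle poles, had 58.1% of 401 UMIs. Outside mitotic-high cells Cdk1 was still found in 1.76% of cells and Aurka in 2.37%, but Ccna2 in 0.104%.

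The chromosomal passenger complex corrects faulty attachments of chromosomes to the spindle. Of its members here, Birc5 (survivin) had 84.2% of its UMIs in mitotic-high cells, Cdca8 (borealin) had 74.5%, and the kinase subunit Aurkb had 27.4% of 775 UMIs, the lowest share of any mitotic member. The activator Cdc20 of the anaphase-promoting complex had 87.7%, and its ubiquitin-conjugating enzyme Ube2c had 91.1% of 1271 UMIs.

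The spindle genes were alike in this respect. Tpx2, which nucleates spindle microtubules, had 90.3%, the motor Kif11 had 86.5%, and Prc1, which bundles the central spindle, had 87.8%. Nusap1 and Ckap2, microtubule-associated proteins, had 82.9% and 85.8%, and Hmmr, a hyaluronan receptor that also binds the spindle, had 74.2%. The centromere genes were uneven, with 96.3% for Cenpf, 85.6% for Cenpw and 63.7% of 251 UMIs for Cenpt, a constitutive kinetochore protein. Top2a, the topoisomerase that untangles sister DNA, had 97.1% of 556 UMIs, the highest share of any mitotic member. Mki67, the Ki-67 antigen used to stain dividing cells, had 74.1%, since 148 cells outside the mitotic-high set had at least 1 of its UMIs. Cdca3, which promotes mitotic entry, had 93.6% and Cdkn3, a phosphatase of cyclin-dependent kinases, had 87.1%.

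The S members were spread over the gland. Outside mitotic-high cells the helicase subunits Mcm2, Mcm4, Mcm6 and Mcm7 were found in 9.85%, 10.1%, 7.96% and 12.1% of cells, and Mcm3 and Mcm5 in 2.07% and 2.88%. Their shares of UMIs in mitotic-high cells were 12.1% for Mcm2, 31.2% for Mcm3, 10.9% for Mcm4, 38.0% for Mcm5, 19.4% for Mcm6 and 10.2% for Mcm7, although the 6 subunits form 1 ring. Gins2, of the GINS complex, had 30.5% of 220 UMIs there. Pcna, the sliding clamp, which also serves DNA repair, was found in 43.9% of the cells outside the mitotic-high set, with 13.8% of its 5526 UMIs inside it. Tyms (thymidylate synthase) had 15.3% and Rrm1, the large subunit of ribonucleotide reductase, had 24.3%.

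Rrm2, the small subunit of ribonucleotide reductase, was the exception. It had 35 UMIs in 27 cells, all 27 of them mitotic-high, so that 100% of its UMIs were there (exact 95% interval 90.0 to 100). That interval takes UMIs as independent, though some shared a cell, so it can be too narrow. A second row of the table, LOC100359539, had 27 UMIs, 85.2% of them in mitotic-high cells, while Rrm2b, the subunit used outside S phase, had 306 UMIs and 2.61%. Whether reads of Rrm2 and LOC100359539 were split between near-identical copies was not tested.

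**Figure D2:**
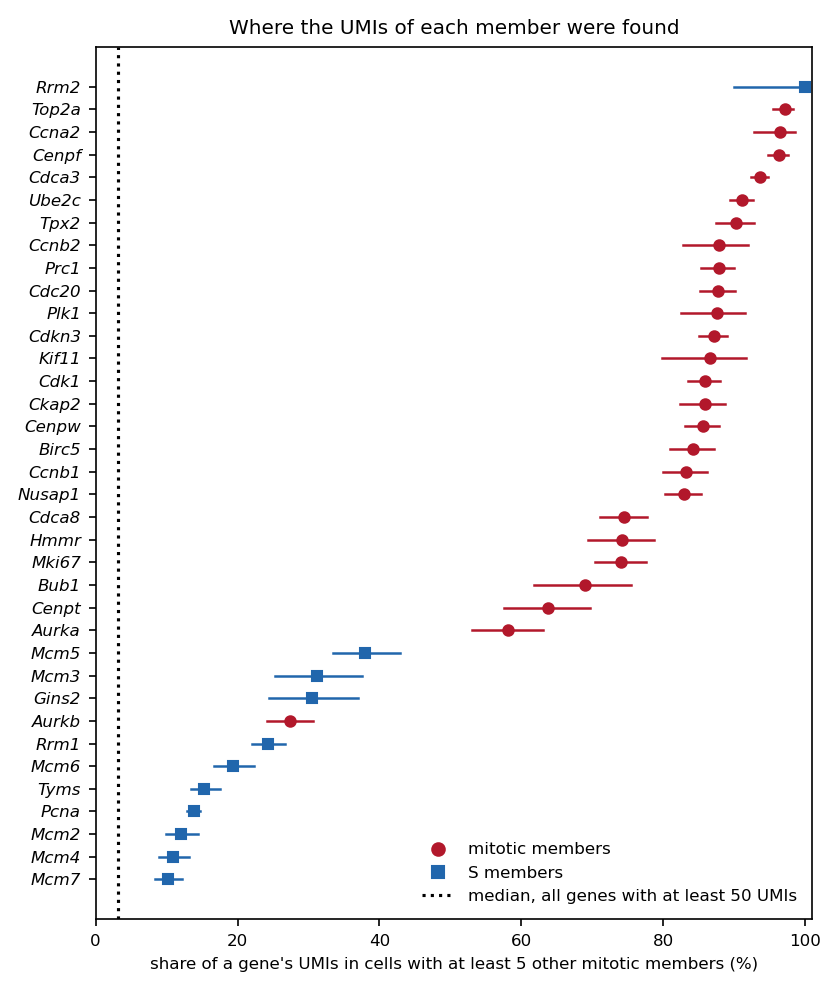
Share of the UMIs of each member (x axis, percent, with exact 95% intervals) that lay in cells with at least 5 other mitotic members, for mitotic members (red circles) and S members (blue squares), ordered by value. The intervals take the UMIs of a cell as independent and can be too narrow. Mitotic members cluster above 50%, except Aurkb at 27.4%, and S members below 40%, except Rrm2 at 100%, against a median of 3.14% over all genes with at least 50 UMIs (dotted line).

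Across types, Pcna was found in 40.5% to 58.7% of the cells outside the mitotic-high set in each of the 8 nucleated types, highest in C, and in 0.277% of erythrocytes. Erythrocytes had a median of 2751 UMIs outside globin, so their near lack of Pcna is read at a lower depth. Tyms was found in 28.5% of EC and 21.8% of G and in 5.59% of Le. Rrm1 was found in 18.4% of FSC and 19.5% of T and in 7.26% of Le. Mcm2 was found in 3.80% of C and in 12.5% of S. No single order of the types held for the S members. These shares were not corrected for depth, and median depth in the nucleated types ran from 6500 UMIs in Le to 13648 in S. Per 1000000 UMIs, Pcna was at 85.3 and 87.1 in female and male C, so C was not highest by that measure. EC had 145 and 124, Le had 112 and 104, and S had 68.9 and 56.4.

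**Figure D3:**
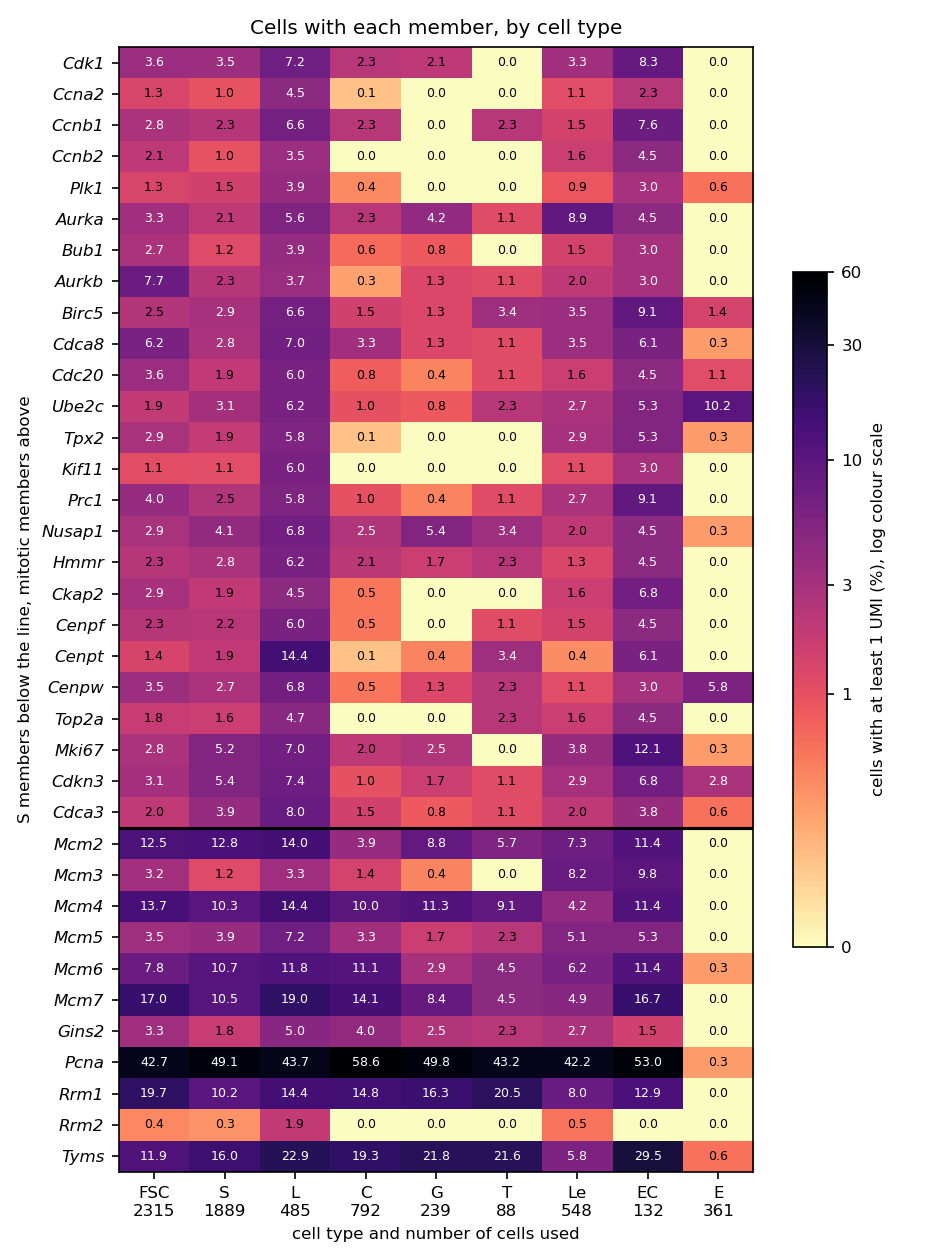
Percent of the cells of each type (columns, with the number of cells used) that had at least 1 UMI of each member (rows), on a log colour scale, mitotic members above the line and S members below it. Pcna is found in 42.2% to 58.6% of the cells of every type but E, and Tyms, Rrm1, Mcm2, Mcm4, Mcm6 and Mcm7 in 2.93% (Mcm6 in G) to 29.5% (Tyms in EC), whereas 22 of the 25 mitotic members are highest in L (15) or EC (7).

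The same cells that carried mitotic members also carried more S members. At least 3 of the 11 S members were found in 101 of the 149 mitotic-high cells (67.8%) and in 750 of the other 6700 cells (11.2%). The mean number of S members per cell was 1.10 in cells with 0 mitotic members, 1.26 with 1, 1.57 with 2, 3.37 with 3 or 4, 4.16 with 5 to 11 and 4.93 with 12 to 25. Median depths of these 6 sets were 8544, 9396, 11375, 14688, 12617 and 14172 UMIs, so part of the rise moves with depth. Thinned to 2000 UMIs per cell, the shares with at least 3 S members were 22.3% and 0.740%. The 2 groups of genes were read in the same cells and share their depth, so no test was made.

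The S members also marked cells outside the mitotic-high set. At least 6 S members were found in 113 cells. Of these, 61 were mitotic-high, 11 had 3 or 4 mitotic members, 22 had 1 or 2, and 19 had none. The 52 cells below the limit were 23 FSC, 10 S, 7 L, 4 C, 4 Le and 4 EC. Conversely, 48 of the 149 mitotic-high cells had 2 S members or fewer.

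Mitotic-high cells rich and poor in S members differed in which mitotic members they held. With 6 to 11 S members (61 cells, median 18064 UMIs) Top2a was found in 86.9% of cells, Cdk1 in 96.7%, Ccna2 in 67.2% and Kif11 in 60.7%. With 0 to 2 S members (48 cells, median 11154 UMIs) the same genes were found in 35.4%, 62.5%, 22.9% and 18.8%. Other members did not follow the lower depth of the second set. Cenpw was found in 67.2% and 79.2%, Cdkn3 in 83.6% and 87.5%, Ccnb1 in 49.2% and 54.2%, and Cenpf in 75.4% and 77.1%, in the S-rich and S-poor sets in that order. In CPM (UMIs of a gene per 1000000 UMIs of the cells summed), the S-poor cells had 1.77 times the Cenpw, 1.56 times the Cdkn3 and 1.53 times the Ccnb1 of the S-rich cells, but 0.336 times the Ccna2 and 0.446 times the Top2a. The sets also differed in make-up, with 25 FSC, 13 somatotrophs and 15 L in the S-rich set and 12, 20 and 7 in the S-poor set. Their median numbers of mitotic members were 20 and 12. The part of cell type and of mitotic number in these differences was not tested.

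**Figure D4:**
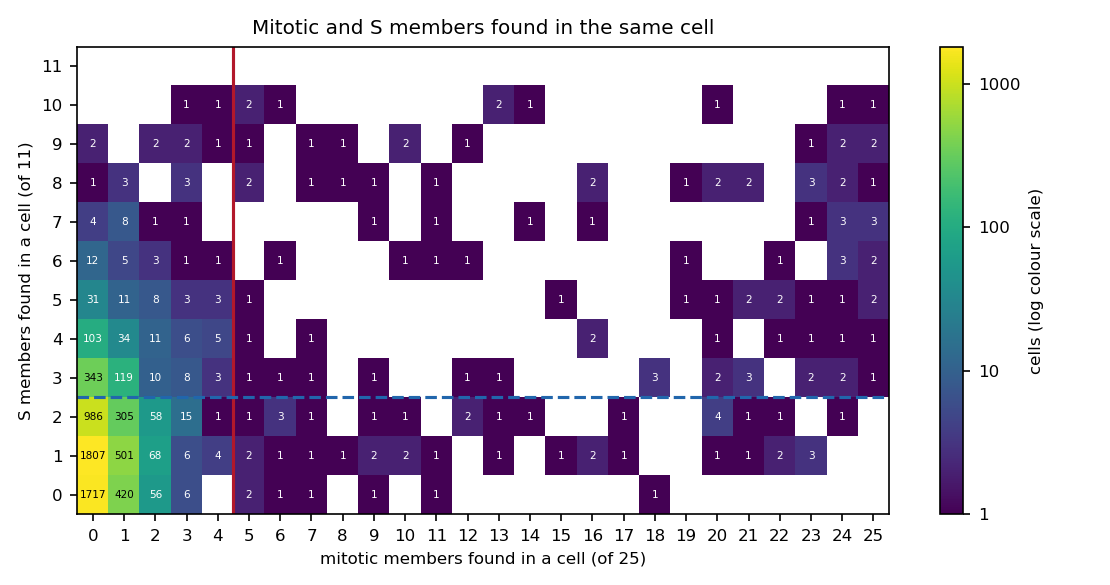
Number of cells (colour on a log scale, and printed) by the number of mitotic members (x axis, of 25) and S members (y axis, of 11) found in the cell. The solid red line marks 5 mitotic members and the dashed blue line 3 S members, and 101 of the 149 cells right of the red line lie above the blue one.

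Pairs of members were found in the same cell more often than their frequencies would give. For each pair the number of cells with both was set against the number expected within cell type, lane and tertile of UMIs. The median ratio was 8.51 over the 300 mitotic pairs, from 4.40 for Aurka with Aurkb to 13.8 for Ccna2 with Top2a. It was 2.41 over the 275 pairs of a mitotic and an S member, of which 274 had an expected number of at least 1, from 1.10 for Aurka with Mcm7 to 15.8 for Top2a with Rrm2. Over the 55 S pairs it was 1.98, from 1.08 for Pcna with Rrm1 to 7.25 for Gins2 with Rrm2. In the 6700 cells outside the mitotic-high set the S pairs with an expected number of at least 1 had a median ratio of 1.45, and the highest was 4.89, for Mcm3 with Mcm5, found together in 31 cells against 6.34 expected. A ratio is limited by how common the more frequent gene of a pair is. Outside the mitotic-high set, S members were found in up to 43.9% of cells (Pcna) and mitotic members in at most 2.61%. The medians of the kinds of pairs are therefore not on equal terms. These ratios are over cells of the same 4 lanes and are descriptions with no test.

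Next, the UMI sums of each cell type were compared with the mean of the other 7 nucleated types (edgeR quasi-likelihood test on 1 sum per type and sex, adjusted over 13624 genes, limit 0.05). Each sex was 1 pool, so the p-values between types measure the spread between the pools of the sexes, not between animals. Differences between the sexes that vary by type are part of that spread. Of the 36 members, 33 passed the filter on low counts, all but Kif11, Gins2 and Rrm2. A member can pass that filter through the type where it is high, so the counts are given beside those over all genes. The fitted log2 difference is taken against the mean of the log levels of the other types, and types with few or no UMIs of a gene, such as G and T, can draw it above the ratio to the mean CPM printed beside it. It is not a fold over that mean. Over all contrasts 32 members were called at least once.

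In lactotrophs most of the members were called. Of the 33, which include the genes the study chose on these cells, 25 were higher in L (23 mitotic and 2 S) and 0 were lower, while 18.5% of all genes were called higher. The median log2 difference was 2.98 over the mitotic members, 0.79 over the S members and 0.08 over all genes. Cdca3 reached 101 CPM in female L and 16.4 in male L, against means of 13.1 and 7.0 over the other types (fitted log2 3.76, SE 0.48, adjusted p 3.43e-05). By CPM, 16 of the 25 were above the mean of the other types in both sexes and 8 only in females. Mcm7 was above it only in males, at 20.8 against 10.1. CPM set these directions by sex, here and for the types below, and lack the scaling of the fit (TMM, explained below). With that scaling Mcm7 was not higher in male than in female L (log2 male over female -0.22, SE 0.30). An example of the 8 is Top2a, at 34.6 in female L against 6.12 and at 1.45 in male L against 4.18. Without the first female lane 18 members were called in L, and with the other lanes left out in turn 25 to 28, all higher. L had more calls than FSC here, but not without the first female lane (18 and 23) or with library size only (19 and 25).

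In FSC 18 of the 33 members were higher (16 mitotic, 2 S) and 0 lower, against 28.3% of all genes called higher. The median log2 difference of the mitotic members was 1.96. Prc1 was at 25.6 and 22.5 CPM in female and male FSC, against 14.4 and 2.38 in the other types (log2 2.63, SE 0.51, adjusted p 5.95e-04). Of the 18, 17 were above the others in both sexes, with Cdca3 the exception in females. The S members that were higher were Mcm7 (log2 0.94, adjusted p 0.00671) and Rrm1 (0.85, adjusted p 0.00288). With DESeq2, another count model, 11 of 33 members were called in FSC and 18 of 33 in L, all higher. Of all 13624 genes, DESeq2 called 3487 higher in FSC and 2321 higher in L. The count in FSC was thus nearer to that over all genes.

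In EC 8 of the 33 members were higher (Ccnb2, Tpx2, Prc1, Ckap2, Cenpf, Mki67, Mcm3 and Tyms), against 20.6% of all genes, but 6 of the 8 only in females. The count in EC was thus near the share over all genes. Tyms was at 59.3 and 37.8 CPM in female and male EC, against 20.1 and 17.8 elsewhere (log2 1.01, SE 0.27, adjusted p 0.00656). Without the second female lane 0 members were called in EC. In Le 7 members were called (49.4% of all genes were), 6 higher (Aurka, Tpx2, Top2a, Mcm3, Mcm5 and Pcna) and Tyms lower. Tpx2 and Top2a were above the other types only in males. Without the first male lane 15 members were called in EC, and without the first female lane 12 in Le.

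The hormone types other than L had fewer calls with edgeR, but DESeq2 called 13 of 33 members in C and 11 of 33 in G, all lower. Of all 13624 genes it called 2157 lower in C and 1033 lower in G. In S Cdca3 was called higher (fitted log2 2.17, adjusted p 0.00428), although it was at 24.6 CPM in female S against 23.9 over the other types and at 16.2 in male S against 7.04, and Rrm1 lower (-0.63, adjusted p 0.0465), while 33.0% of all genes were called. In C 4 members were lower (Aurkb, Nusap1, Cenpt and Mcm2), against 10.3% of genes called lower, and in G 3 were lower (Ccnb1, Cdca8 and Mcm6), against 6.66%. As shares of the 33 members tested, both edgeR counts were near those over all genes. Mcm2 was at 3.87 and 3.88 CPM in female and male C, against 11.8 and 13.8 elsewhere. Ccnb1 had no UMI in G of either sex, so its fitted fold is no measure of size. The median log2 difference of the mitotic members was -2.21 in C and -3.64 in G, while that of all genes was 0.06 in both. Leaving out 1 lane gave 1 to 9 calls in S, 2 to 5 in C and 1 to 7 in G, with the most in S and G without the first male lane and the fewest in C without the second. In T edgeR called 0 of the 33 members (16.6% of all genes were called), 4 were lower at an unadjusted p below 0.05, and DESeq2 called 2. Of all 13624 genes, DESeq2 called 2353 in T. With no filter on low counts all 36 members were tested, and the calls came to 31 in L, 28 in FSC, 14 in S, 13 in C and 12 in G. Of all 24066 genes in these fits, 4085, 6655, 5343, 4674 and 3585 were called, in the same order of types.

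The sexes were then compared within each type, with the 2 male lanes against the 2 female lanes. L stood out. Of 31 members tested, 29 were lower in male L and 0 higher, while 19.2% of all 8629 genes were called lower. Some members passed the filter on low counts through the female lanes, where they are high. Bub1 had 26 and 16 UMIs there and 1 and 1 in the male lanes, and Ccna2 had 24 and 20 against 2 and 1. The count of 29 of 31 was therefore set in part by the filter. All but Cenpt of the 23 mitotic members tested were lower, with a median log2 male over female of -3.25, and all but Mcm7 of the 8 S members, with a median of -1.18, beside 0.02 over all genes. Top2a was at 39.8 and 29.2 CPM in the female lanes and 0.908 and 2.06 in the male lanes, where 3 UMIs were counted in all (log2 -5.13, SE 0.46, adjusted p 7.12e-13). Ube2c was at 96.1 and 80.3 against 5.45 and 15.5 (log2 -3.76, SE 0.25, adjusted p 2.80e-17). The male lanes were below the female lanes for both genes.

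The S members differed less in L. Mcm5 was at 13.6 and 12.4 CPM in the female lanes and 0 and 7.22 in the male lanes (log2 -2.56, SE 0.52, adjusted p 8.90e-05). Rrm1 was at 28.6 and 14.3 against 14.5 and 14.4 (log2 -1.21, adjusted p 0.00259). By CPM, which lack the scaling of the fit, its second female lane lay level with the male lanes. For Pcna the lanes overlapped, at 83.9 and 73.6 in females and 73.6 and 99.0 in males, and its call (log2 -0.53, adjusted p 0.00377) depended on the scaling. The default TMM scaling discounts the few genes that fill a library. With it the log2 median of all genes in L was 0.02, and with scaling by library size alone it was 0.67. With library size alone 23 members were lower in male L, and Pcna was at 0.13 with an adjusted p of 0.457. Of all 8629 genes, 566 were called lower with that scaling. With no filter on low counts 33 of the 36 members were lower in male L, and with DESeq2 20 of 31. Over all genes, 1753 of 17811 were lower with no filter and 891 of 8629 with DESeq2. The S calls depended on the setting: DESeq2 called 0 of the 8 S members, at a median of -1.19, and with library size alone 2 of 8 were called, at a median of -0.53, whereas 20 and 21 of the 23 mitotic members were called.

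In S 11 of 32 members were lower in males (9 mitotic, 2 S) and 0 higher, against 12.9% of genes called lower. The differences were smaller than in L, with a median of -0.68 over the mitotic members. Tpx2 was at 7.17 and 6.83 CPM in the female lanes and 1.58 and 3.4 in the male lanes (log2 -1.52, SE 0.30, adjusted p 3.59e-04). Cenpw was at 15.3 and 12.4 against 5.01 and 6.80 (log2 -1.27, SE 0.20, adjusted p 1.65e-05). Pcna was at 70.5 and 67.4 against 56.4 and 56.4 (log2 -0.35, SE 0.08, adjusted p 9.42e-04). DESeq2 called 2 members in S, also lower in males, beside 657 of all 11928 genes called lower. Without the first male lane 5 members were lower and 1 higher, and without the second 18 were lower.

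In EC 5 of 7 members tested (Birc5, Ube2c, Tpx2, Cenpf and Mki67) were lower in males, against 1.04% of genes called lower. The first 4 had 32, 51, 27 and 36 UMIs in females and 0 in males, and Mki67 had 27 and 2. These members passed the filter on low counts through the female lanes, and the other 29 members were not tested, so that the count of 5 of 7 was set in part by the filter. Without the second female lane 1 member was called. In Le 2 of 9 members, Ube2c and Cdkn3, were higher in males, against 0.299% of genes. Ube2c was at 6.11 and 4.29 CPM in the female lanes and 36.6 and 15.2 in the male lanes (log2 2.35, SE 0.52, adjusted p 0.0393), and both calls were lost with DESeq2 and without the first male lane. Cdkn3 had 3 and 4 UMIs in the female lanes and 30 and 13 in the male lanes. Both genes passed the filter through the male lanes, where they are high. In C 0 of 9 members were called by edgeR (1.50% of genes were), 1 at an unadjusted p below 0.05 and 0 by DESeq2. In G the counts were 0 of 4, 1 and 0 (15.1% of genes), and in T 0 of 1, 0 and 0 (4.48%).

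In FSC, where the shares of mitotic-high cells overlapped between the lanes, 1 of 35 members was called, Aurkb, higher in males (5.65% of genes were called higher). The median log2 male over female of the mitotic members was -0.20. Without the first male lane 5 members were lower in males besides, and without the second 4 members in all were higher. The difference between the types was tested directly, on sums per type and lane. The male over female difference was lower in L than in FSC for 28 of 33 members (11.8% of genes) and lower in L than in S for 21 of 33 (11.6% of genes), and in 0 was it higher. Without the first male lane these counts were 16 and 15, without the second 24 and 12, and without the first female lane 19 and 11. The medians of this difference were -2.86 and -2.02 over the members tested and -0.04 and -0.03 over all genes. Over all cells used, which mixes types in different shares, 26 of 36 members were lower in males and Aurkb was higher (19.5% of genes were called), with a median of -0.83 over the mitotic members. Without the first or the second female lane 0 members were called, but then 3 and 1 of all genes were, and the mitotic medians were -0.84 and -0.95.

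**Figure D5:**
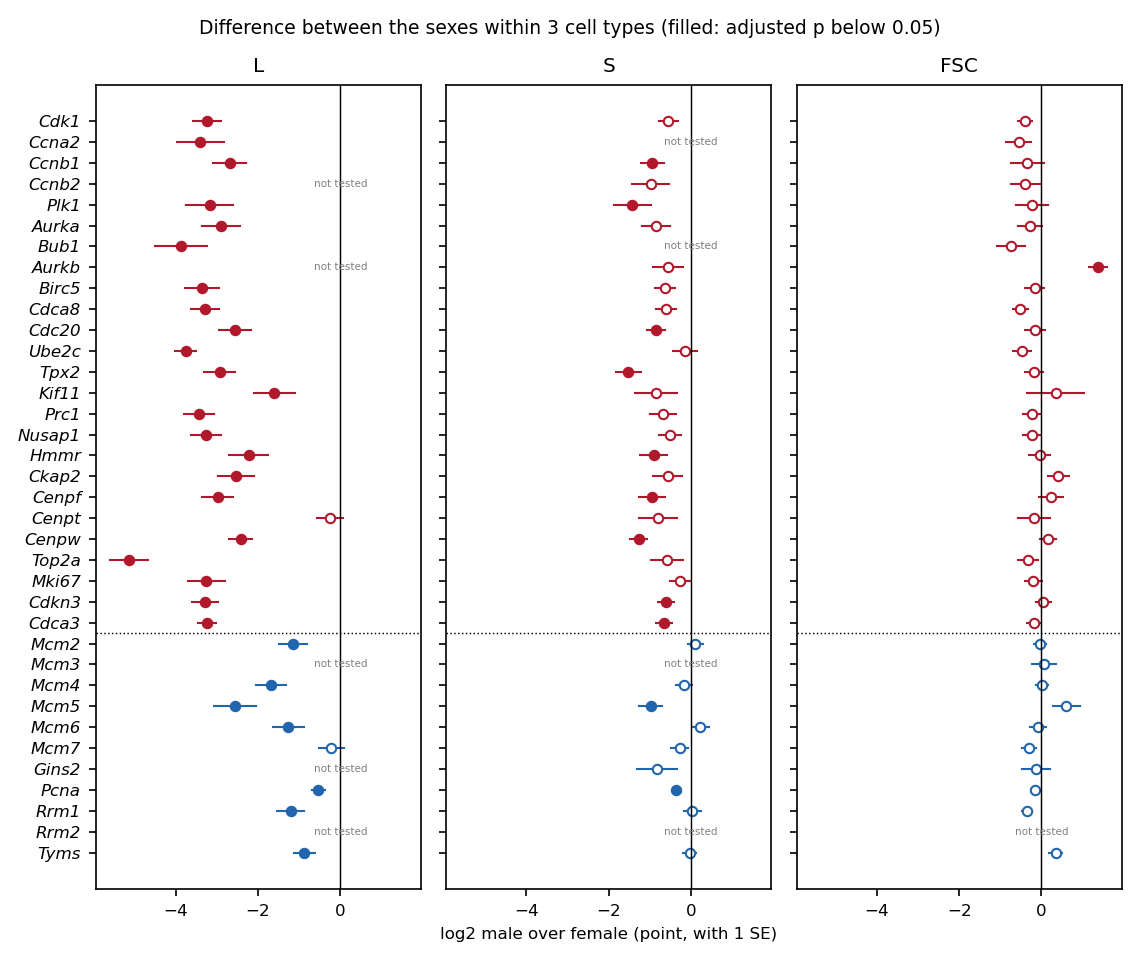
Log2 difference of males over females (x axis, point with 1 SE) for each member in L, S and FSC, mitotic members in red and S members in blue, filled where the edgeR adjusted p was below 0.05. In L 29 of 31 members tested lie left of 0 and are filled, in S 11 of 32, and in FSC Aurkb, at 1.38, is the only filled point.

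Aurkb did not keep to mitotic-high cells. It was found in 7.7% of FSC, and in 6.35% of FSC outside the mitotic-high set, against 2.61% of such cells over all types and 1.63% or less in every other type. In FSC it was at 10.5 and 24 CPM in the female lanes and 42.3 and 51.2 in the male lanes, and 4.94% of female and 10.4% of male FSC had at least 1 UMI. The male over female difference was 1.38 (log2, SE 0.22, adjusted p 4.29e-04), and the call was lost with DESeq2 (adjusted p 0.247) and with no filter on low counts (0.0925). Without the first female lane it was 0.91 (adjusted p 0.050) and without the second 2.11 (0.00181). Of the 178 FSC with Aurkb, 89 had no other mitotic member. The UMIs were unevenly spread, with 28 cells of 5 or more that held 382 of 636 UMIs and up to 72 in 1 cell, and 9 of these 28 cells had at least 4 other mitotic members. Its difference between FSC and the other types was 3.63 (log2, SE 0.49, adjusted p 1.98e-05).

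In lactotrophs of both sexes Cenpt was found in a larger share of cells than in any other type as a whole. It was found in 13.7%, 13.6%, 15.3% and 15.0% of L in the 4 lanes, and at 22, 11, 18.2 and 25.8 CPM, so that the lanes of the sexes overlapped. In the other types it was found in 0.126% of C to 6.06% of EC, and in 0 of 361 E. The difference between L and the other types was 3.92 (log2, SE 0.45, adjusted p 9.66e-06), in both sexes. Between the sexes in L it was -0.25 (SE 0.31, adjusted p 0.569). Outside the mitotic-high set 10.8% of L had Cenpt, and in males 31 of the 39 L with Cenpt had no other mitotic member, against 9 of 31 in females. It was a single UMI in 36 of these 39 male and 14 of these 31 female cells. Its counts are uncertain because the gene overlaps or adjoins others.

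In leukocytes Aurka and Mcm3 were found mostly as single UMIs, in 41 of 49 and 40 of 45 cells, and their counts are uncertain because both genes overlap or adjoin others. Aurka was found in 8.57% and Mcm3 in 7.45% of Le outside the mitotic-high set, against 2.37% and 2.07% of such cells over all types and 0 of 361 E, whose median outside the globin genes was 2751 UMIs against 6499 in Le. Aurka in Le was at 10.9 and 20.4 CPM in females and males, against 7.41 and 2.46 elsewhere (fitted log2 2.49, SE 0.55, adjusted p 0.00128), and Mcm3 at 9.14 and 18.9 against 4.22 and 2.58 (fitted log2 3.92, SE 0.54, adjusted p 2.35e-05). Of the 49 Le with Aurka, 40 had no other mitotic member.

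In erythrocytes, where 14 mitotic and 8 S members were found in no cell, Ube2c was found in 37 of 361 cells (10.2%), in every lane at 6.45%, 7.77%, 15.0% and 12.9%. Cenpw was found in 5.82% and Cdkn3 in 2.77%, and none of the other 22 mitotic members in more than 1.39%. Outside the mitotic-high set the nucleated types had Ube2c in 0.662% to 2.30% of cells, at median depths of 6500 UMIs or more, so the share in erythrocytes was above that of every nucleated type. No erythrocyte had 5 mitotic members.

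Other cell cycle genes were read in the same way, from lists that shared no gene with the members. The G2 and M list includes the remaining genes of the study's own cell cycle list, Kif20a and Pbk among them. The study chose those genes on these same cells, so their values are not independent evidence. Of 49 other S and G1/S genes, 44 had at least 50 UMIs, and the median share of their UMIs in mitotic-high cells was 19.5%. The 5 highest were Dtl (76.6%), E2f8 (76.1%), Tk1 (51.5%), Mcm10 (50.8%) and Cdc45 (50.6%), which load and fire replication origins or regulate and supply S phase. Of 75 other G2 and M genes, 73 were found by symbol and 67 had at least 50 UMIs, with a median share of 65.1%. The 5 highest of those found by symbol were Kif20a (95.4%), Troap (94.2%), Kif18b (93.5%), Pbk (93.4%) and Hjurp (92.3%). The listed Sgo2 was missed, since the data carry it under the older symbol Sgol2. With 128 UMIs and a share of 94.5%, it would stand between Kif20a and Troap. In L 35 of 48 other G2 and M genes tested were higher than in the other types and 0 lower, and 26 of 33 were lower in males and 1 higher. Over all genes, 18.5% were called higher in L and 19.2% lower in male L. The counts of this list include the genes that the study chose, and no count was made without them. For the other S and G1/S genes these counts were 12 of 33 higher in L and 0 lower, and 13 of 25 lower in male L and 1 higher. A gene of either list can pass the filter on low counts through L, or through its female lanes, where it is high. The counts of both lists can therefore be set in part by the filter.

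Outside the members, the 10 genes with at least 50 UMIs and the highest share in mitotic-high cells were Ccno, Fam64a, Traip, Ankle1, Kif20a, Sgol2, Troap, Kif18b, Pbk and Ube2t, from 93.3% to 100%. Ccno, a cyclin known from multiciliated cells, had its 71 UMIs in 2 cells, whereas Ube2t, a ubiquitin-conjugating enzyme of DNA repair, had 506 UMIs in 132 cells and Pbk, a mitotic kinase, had 426 in 123.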

How the data were processed

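Single cells of the anterior pituitary were measured with 10X Genomics 3′ chemistry in 4 lanes, 2 per sex. The deposited values are raw UMI counts per gene and cell, made by the authors with Cell Ranger 2.1 (named in the submitters' processing notes) on an NCBI rat annotation whose 3′ ends were lengthened, and the lanes were combined after mapped reads had been equalized, which evens the depth. Strand use in counting is not given in the sources used here, and Aurka, Cenpt, Cdca3, Rrm2 and Mcm3 overlap or adjoin other genes in RefSeq, so their counts are uncertain to that extent. The lane endings of the barcodes were matched to the sexes by the cell numbers that the study gives for each lane, and Y-linked genes were then read as a check. The 36 members and all lists were chosen with earlier results of these data known.

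Cells were typed by the marker rules of the study with Otsu thresholds, and unclassified cells took the type of their 30 neighbours. In all, 609 cells were left out as called doublets (190, or 2.42% of 7861 cells, from scores against simulated doublets), mitochondrial outliers (273) or outliers in depth or gene number (328). Cells of more than 1 type, melanotrophs, posterior pituitary cells and pericytes were not used. UMI counts were summed per type and sex, or per type and lane, and tested with edgeR 4.0.16 (R 4.3.3), with TMM scaling, the edgeR filter at a minimum count of 10, the quasi-likelihood test and Benjamini-Hochberg adjustment over all genes tested. The SE is the size of the log2 difference divided by the square root of F. DESeq2 1.42.0, scaling by library size, no filter, sums per lane, erythrocytes in the fit, a limit of 0.001, outliers kept and each lane left out were the alternatives, and the test of sex differences between types was added after the data were seen. All members could be named, and of other genes the 10 with the highest share of their UMIs (at least 50) in mitotic-high cells and the 5 highest of each list. Intervals are exact (Clopper-Pearson, 95%) and cover counting error only, as does the 3-cell limit given where none was found. Intervals on shares of UMIs take the UMIs of a cell as independent, so they can be too narrow where a few cells hold many. The fits were tested on simulated data. Promoter sequences are from RefSeq, and none was at hand for 7 members (Mcm4, Ccna2, Rrm2, Ube2c, Tpx2, Cenpt and Aurkb).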

Additional observations from a re-analysis of the deposited data

Results flagged for a closer look

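The difference between males and females itself differed between cell types, by a test of that difference. It was lower in L than in FSC for 28 of 33 members and lower in L than in S for 21 of 33. The first count was 16 without the first male lane, and the second was 10 with library size only, 11 without the first female lane and 12 without the second male lane. For Aurkb the male over female difference in L minus that in FSC was -4.37 on the log2 scale (SE 0.76, adjusted p 1.08e-05 by edgeR). In that fit the gene was higher in males in FSC and lower in males in L, where 35 UMIs were counted in all. Within L alone Aurkb did not pass the filter on low counts and was not tested between the sexes. Its call in FSC was lost with DESeq2 and with no filter. Female L were deeper than male L, and sex, age and pool cannot be told apart, so the part of each in these differences was not tested.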

How the results depend on the processing

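Between the sexes no paired analysis was possible, because the lanes are technical replicates of separate pools. The barcode endings are also not matched to the replicate numbers of the labels. Between types the sums could have been paired by lane, but the fits on sums per lane did not do so. The main fit between types took sex as a covariate. At a limit of 0.001 the union of members called between types fell from 32 to 10, and the calls were 3 in FSC, 0 in S, 5 in L, 0 in C, 0 in G, 2 in Le and 0 in EC. Between the sexes they were 3 in S, 0 in Le, 2 in EC and 10 over all cells, and 17 and 10 for L against FSC and S. Counts over all genes at this limit are not given here. With DESeq2 the type calls were 11 in FSC, 13 in C, 11 in G, 2 in T and 5 in EC, and the sex calls 0 in FSC, 2 in S, 0 in Le, 3 in EC and 16 over all cells. Of all 13624 genes it called 5902, 4607, 3183, 2353 and 5075 in these types. Its sex calls over all genes were 448 of 12896, 1113 of 11928, 37 of 6690, 37 of 4539 and 1309 of 16162. With no filter the type calls were 28 in FSC, 14 in S, 13 in C, 12 in G, 4 in T, 15 in Le and 15 in EC, and the sex calls 0 in FSC, 13 in EC and 13 over all cells. Of all 24066 genes, 6655, 5343, 4674, 3585, 2639, 7189 and 5624 were called in these types. The sex calls over all genes were then 463 of 21251, 148 of 14347 and 1353 of 24087. With library size only the member calls were 7 in C, 5 in G and 14 in EC between types, 1 in G between sexes and 10 for L against S. Of all 13624 genes, 3780, 3086 and 5054 were called in these types, and 1357 of 6923 in G between sexes. Sums per lane gave 8 in S, 10 in C, 9 in G, 2 in T and 12 in Le, and erythrocytes in the fit gave 1 in S. Over all genes, sums per lane gave 5764, 5544, 4065, 2973 and 6957 of 11447, and erythrocytes in the fit 4050 of 13581. With outliers kept the calls were 7 in C, 9 in G, 1 in T and 25 in Le between types, and 7 in FSC and 0 in Le between sexes. Of all 13953 genes, 4402, 3302, 2492 and 6978 were called in these types. Between sexes 1559 of 13271 were called in FSC and 62 of 6879 in Le.

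Leaving out 1 lane gave 31 to 33 members between types, 17 to 23 in FSC, 1 to 9 in S, 18 to 28 in L, 2 to 5 in C, 1 to 7 in G, 0 to 1 in T, 6 to 12 in Le and 0 to 15 in EC. Between sexes it gave 1 to 6 in FSC, 6 to 18 in S, 0 to 3 in Le, 1 to 6 in EC and 0 to 27 over all cells, and 16 to 29 and 11 to 22 for L against FSC and S. The share of mitotic-high cells ranged from 1.82% to 2.51% and that with at least 3 S members from 65.5% to 70.4%. Thinned to 2000 UMIs the latter was 22.3%, and with a limit of 3 mitotic members 3.21% of cells passed. Of single genes, Rrm1 in S turned to 0.53 with erythrocytes in the fit (Rrm1 S against the other types), and Pcna in L to 0.13 with library size only (Pcna L male over female). Of 67 gene calls between types DESeq2 lost 19, and of 75 between sexes 34, none with a changed direction. The cause of these changes was not tested. Calls rest on 2 sums per type or 2 lanes per sex, and the types C, G, T and EC had few UMIs of most mitotic members.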

Other observations

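Cells outside the 9 types also held members. Among 60 melanotrophs 2 (3.33%) and among 59 posterior pituitary cells 1 (1.69%) had at least 5 mitotic members, and Pcna was found in 58.3% and 39.0% of them. Nearly all of these cells came from the male lanes, 56 of 60 and 55 of 59. Over all 7861 cells, those outside the 9 types included, 13 cells with at least 5 mitotic members had been called doublets. How many of these were among the 41 such cells left out as outliers or doublets was not counted.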
